A study of Bos taurus with 3 samples.

Results

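The genes examined were 8 enzymes that conjugate or detoxify small molecules, out of 19533 genes measured in single epithelial cells of the rumen: the sulfotransferases *SULT1B1*, *SULT1C4* and *SULT1A1*, the glucuronosyltransferase *UGT2B10*, the sulfurtransferase *TST*, the oxidases *AOX1* and *CYP1A1*, and the epoxide hydrolase *EPHX1*. The 8 genes were chosen by their measured levels across cell states set by *DLK2*, *GJA1*, *IGFBP5* and *GSTA1*, so their differences between these states are given as values without a test. Tissue was taken from the ventral sac in 3 adult Holstein cows in lactation, all under 1 condition, and 1 droplet library was made per cow. There was no treated or control group, and the cow was the replicate (n = 3).

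The rumen wall is lined by a stratified squamous epithelium that meets plant phenols, microbial metabolites, ammonia, sulfide and cyanide released from feed before the liver does. In the first phase of detoxification, oxidases and hydrolases such as CYP1A1, AOX1 and EPHX1 add or expose a reactive group. In the second phase, sulfotransferases attach sulfate from the donor PAPS and glucuronosyltransferases attach glucuronic acid from UDP-glucuronic acid, which makes the product soluble and ready for export. TST, also called rhodanese, is a mitochondrial enzyme that moves a sulfur atom onto cyanide or into the oxidation of sulfide.

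Cow 1 had 3369 cells, cow 2 had 7401 and cow 3 had 9958, with 38912809 to 104189434 UMIs (unique molecular identifiers, each counting 1 captured transcript) and medians of 9747 to 12051 UMIs per cell. The median mitochondrial share of UMIs was 10.8% to 17.2%, and 35 barcode sequences occurred in more than 1 library. Keratins and the other epithelial markers were all detected in every state, at a summed 56.4 to 136 UMIs per 10000 UMIs per cow. The fibroblast markers summed to at most 0.00373 and the smooth muscle markers to at most 0.0628, the endothelial markers to at most 0.0543 and the immune markers to 0.114 to 0.480. The authors had already picked epithelial cells by *KRT14*, *KRT5* and *KRT19* and removed other cell types. These marker levels thus describe the cells kept and are not a separate check of them.

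Each cell was placed in 1 of 7 states by its UMIs of the 4 genes. *GJA1* encodes the gap junction protein connexin 43, and the 2099 cells with at least 1 *GJA1* UMI (GJA1+) were divided into 649 cells with more *IGFBP5* than *GSTA1*, 1225 with more *GSTA1* than *IGFBP5* and 225 with equal counts. Of the cells without *GJA1*, 7396 had *DLK2* (DLK2+). Among those without *GJA1* and *DLK2*, 3079 had *GSTA1* (GSTA1+), 4672 had *IGFBP5* but no *GSTA1* (IGFBP5+), and 3482 had none of the 4. *GSTA1* encodes a glutathione transferase, *IGFBP5* a binding protein of insulin-like growth factors and *DLK2* a Delta-like membrane protein. The IGFBP5-higher and GSTA1-higher GJA1+ cells held more UMIs (medians of 16074 and 16310) and a larger mitochondrial share (18.4% and 15.3%) than DLK2+ cells (9779 UMIs and 10.7%), and the part of depth and mitochondrial share in the differences was not tested beyond the thinned cells and the cells left out below. A level is given as UMIs of a gene per 10000 UMIs of the group of cells in a cow, which removes a difference in total UMIs but not in RNA content.

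The 8 genes differed widely in abundance. *TST* (ENSBTAG00000030650) had 166551 UMIs in 17137 cells, *EPHX1* (ENSBTAG00000000140) had 43974 in 16429 cells and *SULT1A1* (ENSBTAG00000008635) had 29137 in 8261 cells. *AOX1* (ENSBTAG00000009725) had 2968 UMIs in 1794 cells, *SULT1C4* had 715 in 531 cells and *UGT2B10* (ENSBTAG00000039991) had 675 in 522 cells. *CYP1A1* (ENSBTAG00000001021) had 301 UMIs in 195 cells and *SULT1B1* (ENSBTAG00000001249) had 186 in 167 cells, so the levels of these last genes rest on few UMIs. The symbol *SULT1C4* belonged to a pair of Ensembl genes in the gene list. The values are those of the row that held UMIs, the other row had 0, and which gene each row stands for was not told. The sulfotransferases and *UGT2B10* have close paralogs, and how reads common to paralogs were counted was not tested.

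The sulfotransferases were higher in GJA1+ than in DLK2+ cells in all 3 cows, and the groups did not overlap. The enzymes were chosen by these levels, and the share of all genes without overlap between the states was not determined. A lack of overlap, here and below, thus describes the chosen enzymes and does not set them apart from other genes. SULT1A1 sulfonates phenols and is the broadest of the sulfotransferases. Its level was 4.63, 5.61 and 2.13 UMIs per 10000 in the GJA1+ cells of cows 1, 2 and 3, against 0.744, 0.646 and 0.374 in their DLK2+ cells. Cow 3 had the lowest *SULT1A1* in both groups, while the ratio was alike in the 3 cows, with log2 ratios of 2.64, 3.12 and 2.51. The means were 4.12 and 0.588, a 7.01-fold difference. A *SULT1A1* UMI was found in 85.1% ± 6.04 (SD, n = 3) of GJA1+ cells and 30.4% ± 6.60 of DLK2+ cells, and in 70.5% ± 12.6 and 19.2% ± 4.90 after each cell was thinned to 5000 UMIs, which left out 5.91% and 6.12% of the cells as too shallow. No cell type known to lack the gene was in the data to set the share that free RNA gives.

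*SULT1C4*, a sulfotransferase of small phenols known mainly from fetal tissue, had 474 UMIs in GJA1+ cells and 48 in DLK2+ cells. Its level in GJA1+ cells was 0.139, 0.152 and 0.127 UMIs per 10000 in cows 1 to 3, from 163, 185 and 126 UMIs. In DLK2+ cells it was 0.00867, 0.00565 and 0.00533, from 11, 24 and 13 UMIs. The GJA1+ cells of all 3 cows were thus close to each other, and the ratio of the means was 21.3. *SULT1B1*, an intestinal enzyme that sulfonates thyroid hormones and phenols, was sparser, with 52, 41 and 33 UMIs in the GJA1+ cells and 5, 2 and 3 in the DLK2+ cells. Its levels were 0.0442, 0.0337 and 0.0333 against 0.00394, 0.000471 and 0.00123 UMIs per 10000. The *SULT1B1* ratio was 11.2 in cow 1 (95% exact interval 4.51 to 36.0), 71.6 in cow 2 (18.6 to 611) and 27.1 in cow 3 (8.50 to 138), and these intervals cover counting error only. With so few UMIs in the DLK2+ cells, the intervals were wide and overlapped between the cows.

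*UGT2B10*, which in human liver attaches glucuronic acid to tertiary amines, was higher in the same cells as the sulfotransferases but differed strongly between cows. The level in GJA1+ cells was 0.210, 0.124 and 0.0626 UMIs per 10000 in cows 1, 2 and 3, and in DLK2+ cells it was 0.0213, 0.0106 and 0.00205. Cow 1 was highest and cow 3 lowest in both groups, and the groups did not overlap. The ratio of the means was 11.7, and the log2 ratios per cow were 3.30, 3.55 and 4.93. In GJA1+ cells this order of the cows was the reverse of that of *TST*, which was highest in cow 3.

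*TST* was the most abundant of the 8 and had a UMI in 96.3% ± 2.63 (SD, n = 3) of GJA1+ cells. The shallower DLK2+ cells had a *TST* UMI in 73.0% ± 9.55. After thinning, *TST* had a UMI in 94.5% ± 3.11 of GJA1+ cells and 62.4% ± 12.4 of DLK2+ cells. Its level was 11.04, 12.93 and 18.55 UMIs per 10000 in the GJA1+ cells of cows 1, 2 and 3, and 3.08, 2.96 and 6.01 in the DLK2+ cells. The lowest GJA1+ value thus lay above the highest DLK2+ value, and the means of 14.2 and 4.01 differed 3.53-fold. The state without any of the 4 genes had the lowest mean *TST* level, 3.66 ± 1.25 (SD, n = 3), which did not differ from DLK2+ cells beyond the spread between cows.

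*AOX1* went the other way. It encodes aldehyde oxidase, a molybdenum enzyme that oxidizes aldehydes and nitrogen-containing rings. Its level was 0.0536, 0.0296 and 0.0303 UMIs per 10000 in GJA1+ cells and 0.546, 0.162 and 0.120 in DLK2+ cells of cows 1, 2 and 3. The groups did not overlap, and the mean was 7.31-fold higher in DLK2+ cells. Cow 1 had the highest DLK2+ value, and the log2 ratio of GJA1+ to DLK2+ cells was -3.35 in cow 1 and -2.46 and -1.99 in cows 2 and 3.

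*CYP1A1*, the classic target gene of the aryl hydrocarbon receptor, came mostly from cow 3. Of its 301 UMIs, 242 came from cow 3, where 161 cells had a UMI, against 14 cells in cow 1 and 20 in cow 2. The level in GJA1+ cells was 0.0128, 0.0165 and 0.0605 UMIs per 10000 in cows 1, 2 and 3, against 0.00158, 0.00353 and 0.0176 in DLK2+ cells. Each cow was higher in GJA1+ cells, but the groups overlapped, since the DLK2+ cells of cow 3 exceeded the GJA1+ cells of cows 1 and 2. The direction in cow 2 rested on 2 cells: its 20 UMIs lay in 0.306% of the GJA1+ cells, while 0.330% of its DLK2+ cells had a UMI. In cow 2, 1 cell held 11 of the 41 UMIs, and in cow 3 the 10 cells with the most *CYP1A1* held 21.9% of its UMIs. The 195 cells with *CYP1A1* were deeper than the rest, with a median of 12979 against 10491 UMIs. *AHR*, the receptor, had 4 UMIs in them, too few to compare its level. *UGT1A1*, the bilirubin glucuronosyltransferase and also a target of the receptor, was at 5.19 ± 2.04 against 3.90 ± 0.396, higher in all 3 cows. *TIPARP*, another target of the receptor, was at 0.835 ± 0.780 UMIs per 10000 in cells with *CYP1A1* and 0.613 ± 0.415 in the rest (SD, n = 3), higher in 2 of 3 cows.

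*EPHX1*, the microsomal epoxide hydrolase, differed little between these groups of cells. Its level was 1.99, 1.74 and 1.18 UMIs per 10000 in GJA1+ cells and 2.24, 2.11 and 1.59 in DLK2+ cells of cows 1, 2 and 3. The GJA1+ cells were lower in each cow, but the groups overlapped, and the means of 1.64 and 1.98 differed 1.21-fold. Over the 7 states the mean *EPHX1* level ran only from 1.50 ± 0.415 in the GJA1+ IGFBP5-higher cells to 2.01 ± 0.251 in the IGFBP5+ cells, and every neighbouring pair in that order overlapped.

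**Figure D1:**
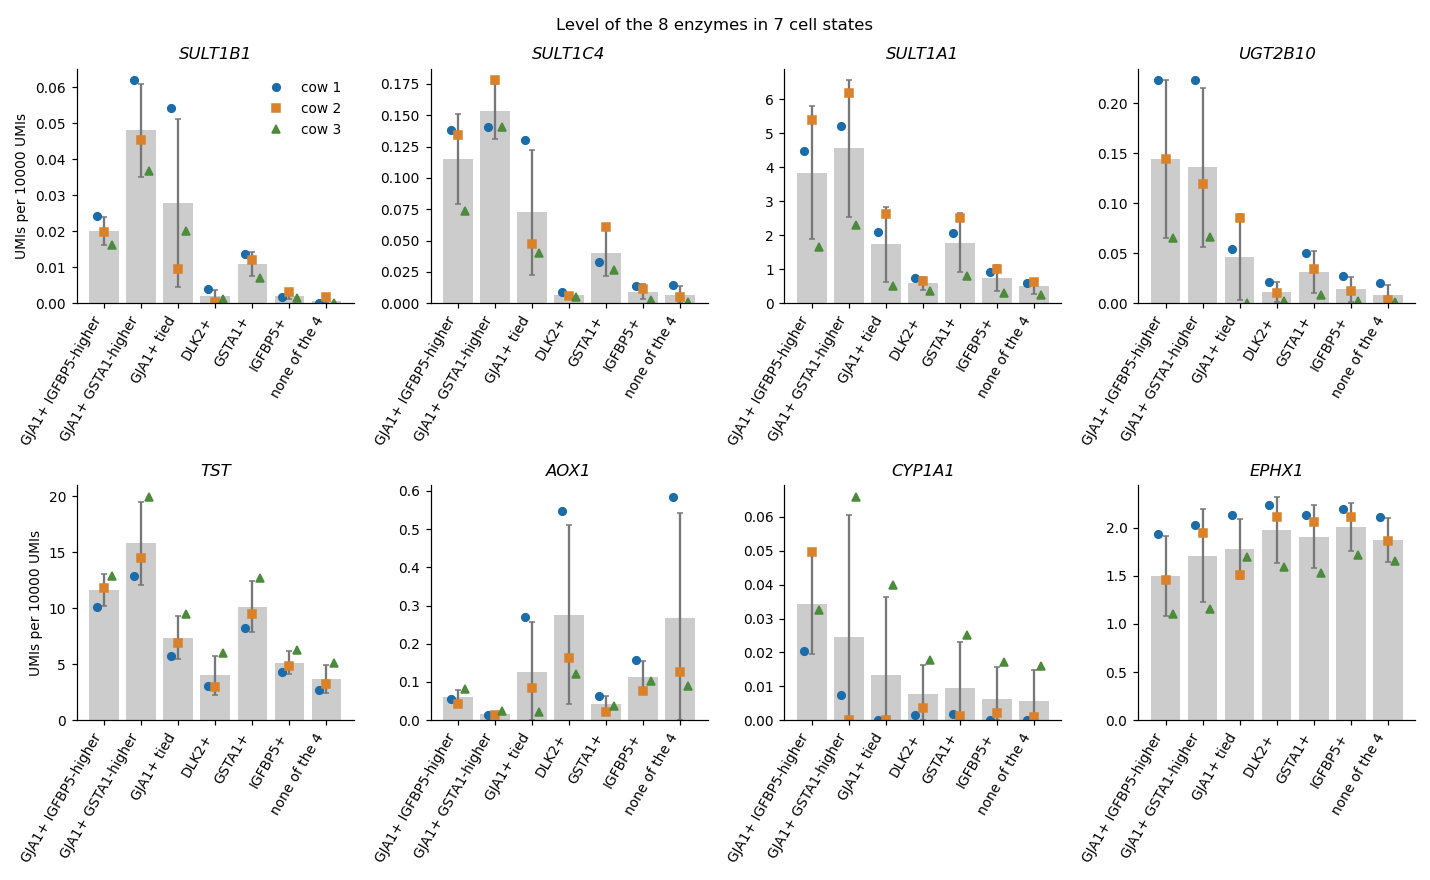
Level of each enzyme (y axis, UMIs per 10000 UMIs, a separate scale per gene) in the 7 cell states (x axis). Bars are means over 3 cows, error bars are the SD cut at 0, and points are the cows. The sulfotransferases, UGT2B10 and TST have their highest means in the GJA1+ GSTA1-higher or IGFBP5-higher cells. AOX1 has its highest means in DLK2+ cells and cells with none of the 4. CYP1A1 is highest in cow 2 in the IGFBP5-higher cells and in cow 3 in every other state.

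**Figure D2:**
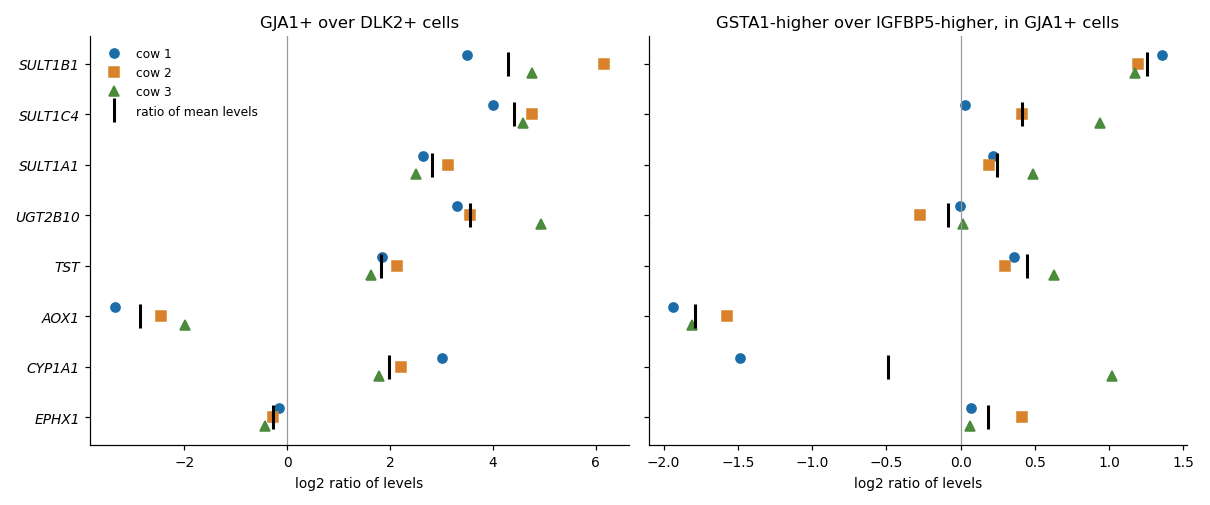
Log2 ratio of levels (x axis) for each enzyme in each cow, for GJA1+ over DLK2+ cells (left) and GSTA1-higher over IGFBP5-higher GJA1+ cells (right), with a bar at the ratio of the mean levels. On the left every cow lies on the same side of 0 for each gene. On the right SULT1B1 lies between 1.17 and 1.36, AOX1 lies between -1.94 and -1.57, and CYP1A1 in cow 2 is not drawn because the GSTA1-higher cells had 0 UMIs.

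Cells with *GSTA1* but no *GJA1* and *DLK2* stood between the extremes. Their mean *SULT1C4* level was 0.0402 ± 0.0185 UMIs per 10000, against 0.00924 ± 0.00611 in IGFBP5+ cells (SD, n = 3), and the 3 cows did not overlap between these states. *SULT1B1* was at 0.0109 ± 0.00339 and 0.00210 ± 0.000839, also without overlap, and *TST* at 10.1 ± 2.28 and 5.13 ± 1.02 without overlap. *AOX1* was lower in the GSTA1+ cells, 0.0410 ± 0.0219 against 0.112 ± 0.0420, and was lower in all 3 cows. The remaining enzymes overlapped between these states. *SULT1A1* was at 1.79 against 0.740 and *UGT2B10* at 0.0311 against 0.0139, both higher in GSTA1+ cells in all 3 cows. *CYP1A1* was at 0.00940 against 0.00636, higher in 2 of 3 cows, and *EPHX1* at 1.91 against 2.01, lower in all 3. The GSTA1+ cells also had a higher sum of the suprabasal and granular markers, which over all cells is mostly the keratin *KRT6A* (2.70 to 6.66 UMIs per 10000 per cow against 1.35 to 2.50), with 4 of 7 markers detected against 5 of 7. They were deeper, with a median of 12703 against 10344.5 UMIs, and held 86 cells under 1% mitochondrial UMIs against 17. The part of these in the differences was not tested.

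Among GJA1+ cells, the GSTA1-higher cells had more *SULT1B1* than the IGFBP5-higher cells. The levels were 0.0621, 0.0453 and 0.0367 UMIs per 10000 against 0.0242, 0.0198 and 0.0163 in cows 1, 2 and 3, without overlap, and the ratio of the means was 2.39. The counts behind them were 34, 32 and 30 UMIs against 13, 8 and 2, and in cow 3 the ratio of 2.25 had a 95% exact interval of 0.571 to 19.4. Of the GSTA1-higher cells 67 had under 1% mitochondrial UMIs, against 10 of the IGFBP5-higher cells, and without such cells the log2 ratio of the means was 1.25, against 1.26 with them. *TST* was at 12.9, 14.5 and 20.0 against 10.1, 11.8 and 12.9 UMIs per 10000, a 1.36-fold difference of the means, and the lowest GSTA1-higher cow and the highest IGFBP5-higher cow met at 12.9.

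The other sulfotransferases differed less between these cells. *SULT1C4* was at 0.141, 0.178 and 0.141 UMIs per 10000 in GSTA1-higher cells and 0.138, 0.134 and 0.0733 in IGFBP5-higher cells. The log2 ratio was 0.03 in cow 1 and 0.94 in cow 3, where the IGFBP5-higher cells held 9 UMIs. *SULT1A1* was higher in GSTA1-higher cells in all 3 cows, but its means of 4.56 and 3.84 overlapped. For both genes the direction turned when at least 2 *GJA1* UMIs were asked of a GJA1+ cell.

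*UGT2B10* showed no difference between these GJA1+ cells beyond the spread between cows, with 0.223, 0.119 and 0.0660 UMIs per 10000 against 0.224, 0.144 and 0.0651. *AOX1* was lower in GSTA1-higher cells, at 0.0146, 0.0142 and 0.0232 against 0.0559, 0.0422 and 0.0814, from 37 against 57 UMIs. The *AOX1* groups did not overlap, and the means differed 3.45-fold. *CYP1A1* had 4, 0 and 54 UMIs in GSTA1-higher cells and 11, 20 and 4 in IGFBP5-higher cells of cows 1, 2 and 3, so cow 3 went against cows 1 and 2, and the 20 UMIs of cow 2 lay in 2 cells. *EPHX1* was higher in the GSTA1-higher cells of each cow, with means of 1.71 and 1.50 that overlapped.

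The GJA1+ cells with more *GSTA1* also had a higher sum of the suprabasal and granular markers, a summed 8.96 to 22.5 UMIs per 10000 per cow against 3.03 to 6.84 in the IGFBP5-higher cells and 2.91 to 3.76 in DLK2+ cells, with 5 of 7 markers detected in either GJA1+ group. Over all cells this sum is mostly the keratin *KRT6A* (83112 UMIs, against 5715 for *KRT10* and at most 71 for *SBSN*, *IVL*, *KRT1* and *LOR*). *DLK2*, which is in the same list, went the other way, at 0.0988 ± 0.0245 UMIs per 10000 in GSTA1-higher and 0.354 ± 0.0721 in IGFBP5-higher cells. In DLK2+ cells, which are set by this gene, *DLK2* itself made up 1.72 ± 0.181 of the mean sum of 3.30. The basal markers summed to 47.5 to 56.4 in GSTA1-higher and 70.3 to 84.0 in IGFBP5-higher cells. The part of these marker levels in the differences was not tested. A *DLK2* UMI was also present in 223 of the IGFBP5-higher and 129 of the GSTA1-higher cells. Without the cells with both genes, the log2 ratio of *AOX1* between GJA1+ and DLK2+ cells moved from -2.87 to -3.83.

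The levels also changed with the number of *GJA1* UMIs in a cell. *SULT1C4* stood at 0.0126 ± 0.00276 UMIs per 10000 (SD, n = 3) in the 18629 cells with no *GJA1*, at 0.0463 ± 0.0113 with 1 UMI, 0.0899 ± 0.0367 with 2 to 3, 0.145 ± 0.0520 with 4 to 7 and 0.281 ± 0.0246 with 8 or more. *SULT1B1* ran from 0.00336 ± 0.00124 to 0.0801 ± 0.00999 and *UGT2B10* from 0.0148 ± 0.0123 to 0.254 ± 0.126 over the same 5 classes. *TST* and *SULT1A1* were both higher in each further class in every cow. *TST* was at 5.41, 10.96, 14.8, 15.7 and 16.7, and *SULT1A1* at 0.799, 2.26, 3.75, 4.42 and 6.12. *AOX1* dropped from 0.195 in cells without *GJA1* to 0.0883 with 1 UMI and 0.0158 with 2 to 3, and then stayed at 0.00920 and 0.0160. *EPHX1* was at 1.96 ± 0.300 in cells without *GJA1* and 1.30 ± 0.457 with 8 or more UMIs, lower in each cow. The classes with more *GJA1* also held more UMIs per cell, from a median of 10119 with no *GJA1* to 19232 with 8 or more, and the part of depth in these trends was not tested.

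**Figure D3:**
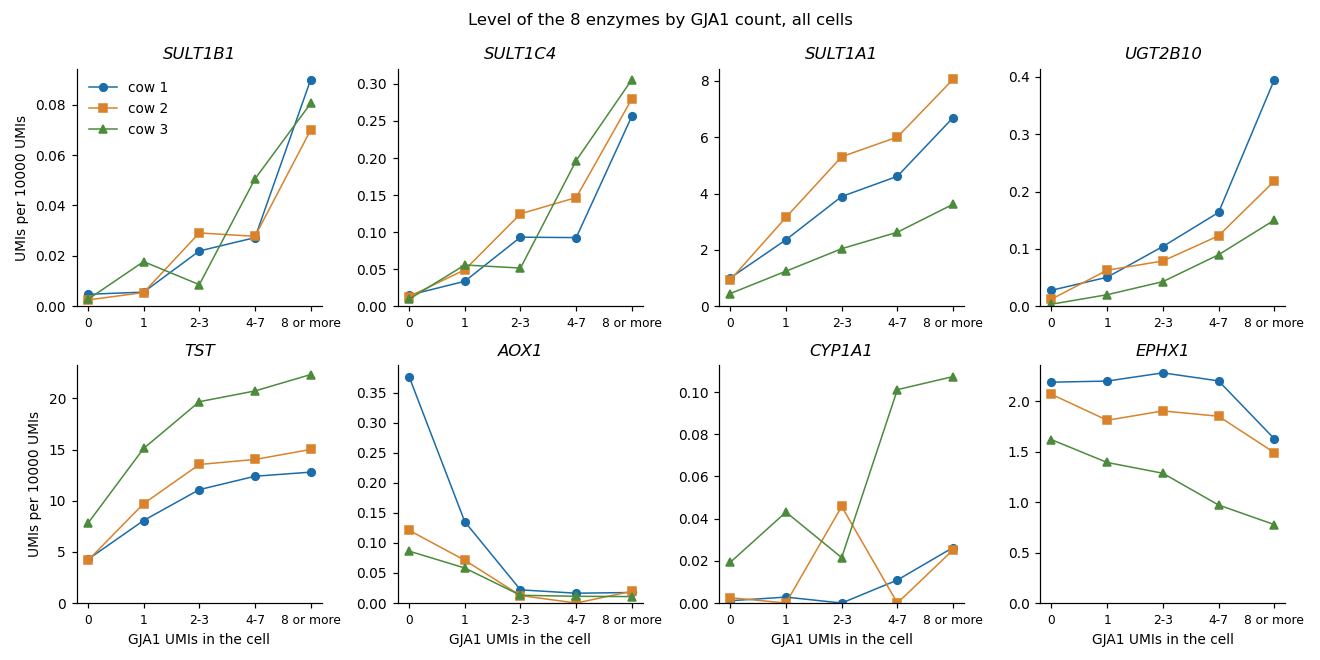
Level of each enzyme (y axis, UMIs per 10000 UMIs) in all cells, grouped by the number of GJA1 UMIs in the cell (x axis), with a line per cow. SULT1C4, SULT1B1, UGT2B10, SULT1A1 and TST are higher with 8 or more GJA1 UMIs than with 0 in each cow, and AOX1 and EPHX1 are lower.

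In cells without *GJA1*, the number of *DLK2* UMIs was followed in the opposite direction by *TST* and *SULT1A1*. *TST* was at 6.39 ± 1.76 UMIs per 10000 in cells without *DLK2* and at 4.42 ± 1.53, 3.66 ± 1.72 and 3.14 ± 2.02 with 1, 2 to 3 and 4 or more UMIs. The mean *SULT1A1* level was lower over these classes as well, from 0.988 ± 0.438 to 0.428 ± 0.149. The class without *DLK2* included the 3079 GSTA1+ cells, with *TST* at 10.1 and *SULT1A1* at 1.79. Against cells with none of the 4 genes, DLK2+ cells were not lower. *SULT1A1* was at 0.588 against 0.493, higher in 3 of 3 cows, and *TST* at 4.01 against 3.66, higher in 2 of 3. The part of this mix of cells in the trend was not tested. *AOX1* was at 0.127 ± 0.0878 without *DLK2* and 0.309 ± 0.318 with 4 or more UMIs, where cow 3 (0.0587) lay below its own cells without *DLK2* (0.0747).

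Within the GJA1+ cells, *SULT1C4*, *SULT1B1* and *UGT2B10* were compared between cells with and without a UMI of one of the others. The 319 GJA1+ cells with a *SULT1C4* UMI had 2.39-fold more *UGT2B10* and 2.41-fold more *SULT1B1* than the 1780 without, higher in 3 of 3 cows for both. The 329 cells with *UGT2B10* had 2.61-fold more *SULT1C4* than the 1770 without, 0.276 ± 0.0196 against 0.106 ± 0.0234 UMIs per 10000 (SD, n = 3). *AOX1* was at 0.00920 ± 0.0101 in GJA1+ cells with *SULT1C4* and 0.0439 ± 0.0143 in those without, lower in each cow. Cells with a *SULT1C4* UMI were also deeper, with a median of 18387 against 15217.5 UMIs, and all 3 genes had higher levels with more *GJA1* UMIs. The part of depth and of the *GJA1* level in these differences was not tested. Within the IGFBP5-higher cells, *SULT1B1* was 1.69-fold higher with *SULT1C4* and higher in 2 of 3 cows, and *UGT2B10* was 3.55-fold higher in 3 of 3. Within the GSTA1-higher cells the folds were 1.93 and 2.14, in 3 of 3 cows for both.

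The other genes of these pathways were taken from lists of 137 genes in 11 groups, of which 114 were in the table and 80 passed the filter on low counts. Between GJA1+ and DLK2+ cells, edgeR's quasi-likelihood test with the cow as a block called 31 of the 80 higher and 19 lower at an adjusted p under 0.05 (Benjamini-Hochberg over 10663 genes) and a log2 fold change over 0.25. Of all genes tested, 17.5% were called higher and 21.1% lower. The median log2 fold change was 0.11 over the list genes and -0.05 over all genes. The fit weights the 3 GJA1+ states equally, whereas the levels printed beside it pool all GJA1+ cells of a cow, so a fold change here is not the log2 ratio of those levels.

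The enzymes that make and recycle the sulfate donor did not move together. *PAPSS2*, which makes PAPS, was higher in GJA1+ cells, at 0.156 ± 0.0811 against 0.0273 ± 0.00731 UMIs per 10000 (SD, n = 3), with a log2 fold change of 2.22 ± 0.20 (SE) and an adjusted p of 8.6e-10. *BPNT1*, which removes the spent donor, was also higher (log2 fold change 0.67). *PAPSS1*, the paralog that makes the same donor, was lower (-0.66), a call lost without cow 1 (adjusted p 0.15 by edgeR) or cow 3 (0.067). *SULT2B1*, a sulfotransferase of sterols in squamous epithelia, was higher by 1.50 ± 0.45 from 134 UMIs in all, with an adjusted p of 0.0089. Without cow 1 its call was lost, with a log2 fold change of 0.94, and in thinned cells and without the cells under 1% mitochondrial UMIs it did not pass the filter and was not tested. In this list of 16 genes, 3 of the 9 tested were higher and 1 was lower.

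The glucuronidation list had 5 of 6 tested genes higher in GJA1+ cells and none lower. *UGDH*, which makes UDP-glucuronic acid, was at 0.618 ± 0.0281 against 0.159 ± 0.00427 UMIs per 10000, with a log2 fold change of 1.69 ± 0.12 (SE) and an adjusted p of 5.9e-12. *SLC35D1*, which carries the donor into the endoplasmic reticulum, was higher by 1.23, and *UGT1A1*, the bilirubin transferase, by 0.35. *UGT2A1* was higher by 3.44 ± 0.71 (SE, adjusted p 0.00027), from 75 UMIs in all cells, and it did not pass the filter without cow 1 or in thinned cells, so it was not tested there.

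The sulfide and cyanide list had 7 of 9 genes higher and 1 lower in GJA1+ cells. *ETHE1*, the mitochondrial persulfide dioxygenase, was higher by 1.03 on the log2 scale, *TSTD1* by 0.84, *SUOX* (sulfite oxidase) by 0.55, *SQOR* (which oxidizes sulfide) by 0.35 and *MPST*, the paralog of *TST*, by 0.29 (0.25, under the threshold, without cow 2). *CBS*, which makes cystathionine and hydrogen sulfide, was lower, at 0.251 ± 0.0419 against 0.544 ± 0.115 UMIs per 10000, a log2 fold change of -0.89 ± 0.07 (SE) with an adjusted p of 6.0e-11.

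Beside *AOX1*, the molybdenum enzymes went both ways: *SUOX* was higher, as given above, while *XDH* (xanthine dehydrogenase) and *MTARC2* (an amidoxime reductase) were lower in GJA1+ cells, by -0.47 and -0.43 on the log2 scale, and *MOCS2*, which makes the cofactor, was higher by 0.27, a call lost without cow 2 (0.22, adjusted p 0.13). In the cytochrome P450 list 5 of 15 were higher and 1 was lower. *CYP2C87* was higher by 1.63 ± 0.54 (SE, adjusted p 0.016) from 284 UMIs, but this rested on cow 1: without it the log2 fold change was -0.06 (adjusted p 0.93). *NQO2*, a quinone reductase, was at 1.13 ± 0.196 against 3.34 ± 0.558 UMIs per 10000, a log2 fold change of -1.20 ± 0.09 (SE, adjusted p 1.2e-11). *PON3*, a lactonase, was lower by -1.37 ± 0.13 (SE, adjusted p 3.1e-09).

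Of the xenobiotic receptors and their partners, 5 of 8 tested were lower in GJA1+ cells and 1 was higher. *NR1I3*, the receptor CAR, was lower by -1.44 ± 0.22 (SE, adjusted p 6.2e-06), and *TIPARP* by -0.85 ± 0.13 (SE, adjusted p 1.0e-05). *AHR* itself was at -0.71 with an adjusted p of 0.047, and the call was lost without cow 1 (-0.30, adjusted p 0.56), without cow 2 (adjusted p 0.070) and with DESeq2 (0.084). *EPHX2*, the soluble epoxide hydrolase and the only called gene of its list, was lower by -0.61. Of the remaining lists, the methyl and acyl transferases had 2 of 4 higher and 1 lower, the flavin monooxygenases and esterases 1 of 4 higher and 3 lower, the alcohol, aldehyde and carbonyl enzymes 5 of 15 higher and 3 lower, and the efflux pumps 1 of 3 in each direction.

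**Figure D4:**
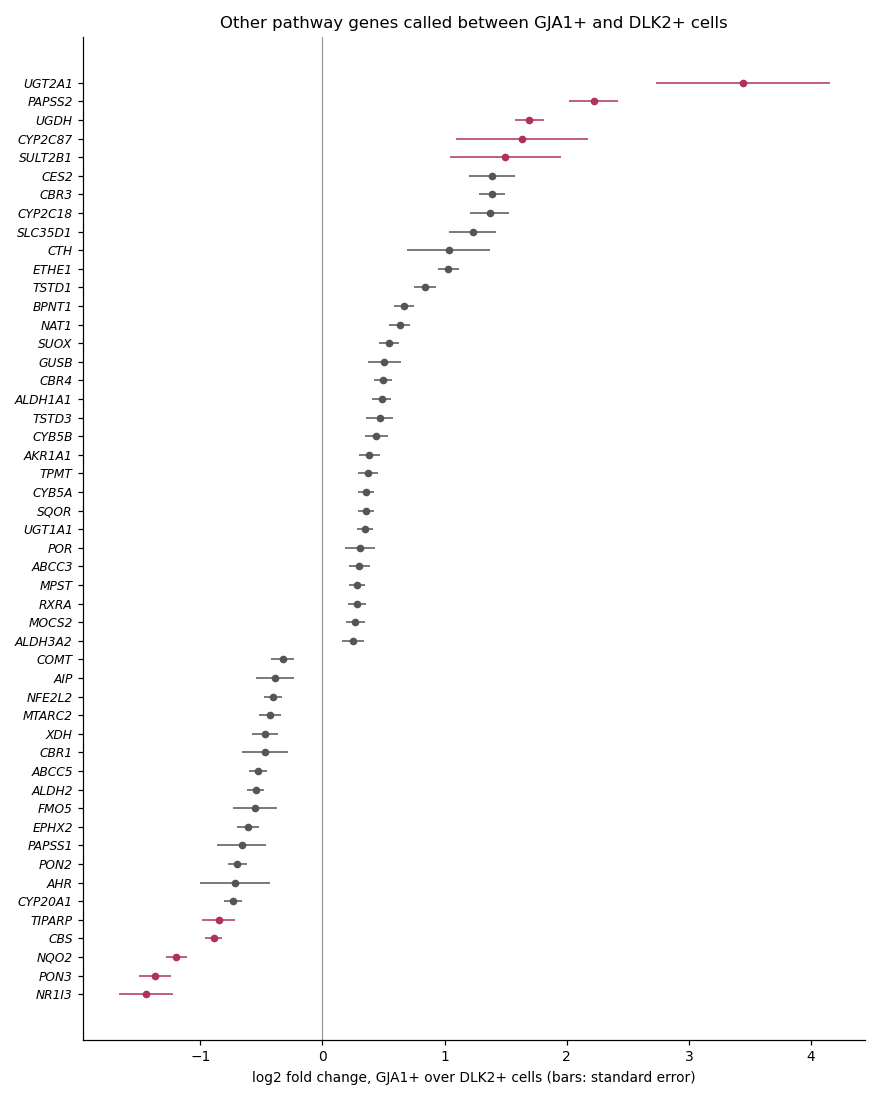
Log2 fold change of GJA1+ over DLK2+ cells (x axis, bars are standard errors of the fit) for the 50 called pathway genes other than the 8 enzymes, with the 5 largest changes in each direction that went the same way in all cows in red. UGT2A1 at 3.44 and PAPSS2 at 2.22 lead the higher genes, and NR1I3 at -1.44 is the lowest.

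Between GSTA1-higher and IGFBP5-higher GJA1+ cells, 9 of the 80 list genes were called higher and 4 lower, where 5.14% of all genes were called higher and 2.61% lower. The median log2 fold change was 0.09 over the list genes and 0.01 over all. *CBR3*, a carbonyl reductase, was at 1.34 ± 0.245 against 0.522 ± 0.127 UMIs per 10000 (SD, n = 3), a log2 fold change of 1.29 ± 0.12 (SE, adjusted p 2.9e-08). *CYP2C18* was higher by 0.98 ± 0.17 (SE, adjusted p 0.00037) and *CYP2C87* by 2.11 ± 0.40 (SE, adjusted p 0.00090). In thinned cells both calls were lost, with log2 fold changes of 1.2 and 2.05 (adjusted p 0.054 and 0.31). The states were set again from the thinned counts there, so the cells compared also changed. *UGT2A1* was higher by 2.03 and *TSTD3* by 0.48, with adjusted p of 0.039 and 0.027.

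The 4 lower genes were *NQO2* (-0.82 ± 0.12, SE, adjusted p 4.9e-05), *CYP20A1* (-0.56, adjusted p 0.0017), *CBS* (-0.37, adjusted p 0.029) and *ALDH2*, the mitochondrial aldehyde dehydrogenase (-0.33, adjusted p 0.025). The calls of *UGT2A1*, *TSTD3*, *CBS* and *ALDH2* were each lost with gates of 2 UMIs and on leaving out at least 1 cow. For *UGT2A1* the adjusted p was 0.060 without cow 2 and 0.15 without cow 3, and for *ALDH2* it was 0.18 and 0.19. For *TSTD3* it was 0.051 to 0.35 and for *CBS* 0.067 to 0.26 with any cow left out. *CYP20A1* lost its call without cow 1 (adjusted p 0.052) and with gates of 2 UMIs (0.19), and was at 0.39 in thinned cells (0.61). *NQO2* lost its call with gates of 2 UMIs (-0.50, adjusted p 0.080).

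Cycling was not named in the rule for the 8 enzymes, but this comparison was not independent of it. The shares of GSTA1+ and DLK2+ cells differed between cycling and other cells, as given below. The enzymes were chosen by their levels across these states, so their calls do not set them apart from other genes. Among cells without *GJA1*, the 2788 cells with a UMI of *MKI67* or *TOP2A*, both expressed in dividing cells, were compared with the other 15841. Of the 8 enzymes, all 8 passed the filter, 4 were called higher and 2 lower in cycling cells, where 14.9% of the 11459 genes tested were called higher and 14.9% lower. The tests are edgeR's, adjusted over all genes.

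*AOX1* fell furthest. Its level was 0.102, 0.0293 and 0.0353 UMIs per 10000 in the cycling cells of cows 1, 2 and 3, against 0.435, 0.129 and 0.107 in the other cells. It was lower in each cow, with a log2 fold change of -1.94 ± 0.13 (SE, adjusted p 8.4e-09 by edgeR). *EPHX1* was lower by -0.32 ± 0.07 (SE, adjusted p 0.0021), at 1.98, 1.75 and 1.41 against 2.23, 2.10 and 1.70. Both calls were also made in DLK2+ cells alone, with log2 fold changes of -1.55 and -0.37, and in cells without *GJA1*, *DLK2* and *GSTA1*, with -2.08 and -0.42.

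*SULT1C4* was higher in cycling cells, at 0.0318, 0.0366 and 0.0143 UMIs per 10000 against 0.0116, 0.0111 and 0.00783, with a log2 fold change of 1.22 ± 0.26 (SE, adjusted p 0.0021 by edgeR). *UGT2B10* was higher by 1.04 ± 0.27 (SE, adjusted p 0.0088), at 0.0425, 0.0234 and 0.00752 against 0.0250, 0.0116 and 0.00222. *SULT1A1* was higher by 0.59 ± 0.13 (SE, adjusted p 0.0022), at 1.67, 1.68 and 0.483 against 0.869, 0.869 and 0.443, so that cow 3 hardly differed. With DESeq2 the *SULT1A1* call was lost (adjusted p 0.16), and the *UGT2B10* call was lost without cow 3 (edgeR, adjusted p 0.066) and with gates of 2 UMIs (0.056). The gates of 2 UMIs also let in the 797 cells with 1 *GJA1* UMI. *UGT2B10* was at 0.0447 UMIs per 10000 in them, against 0.0148 in cells with no *GJA1*, and their part in the lost call was not tested.

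*TST* was higher by 0.28 ± 0.08 (SE, adjusted p 0.019), at 5.38, 5.85 and 8.19 against 4.03, 4.01 and 7.64 UMIs per 10000. This call was lost with no filter, with gates of 2 UMIs, in thinned cells, without cow 1 (log2 fold change 0.21, under the threshold) and without cow 2 (0.18, adjusted p 0.19 by edgeR). *SULT1B1* (log2 fold change 0.34, adjusted p 0.64, from 60 UMIs) and *CYP1A1* (0.22, adjusted p 0.69, from 64 UMIs in cycling and 142 in other cells) did not pass.

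The make-up of the cycling cells differed from that of the others. On average 27.8% ± 5.81 (SD, n = 3) of the cycling cells were GSTA1+ and 26.1% ± 7.51 were DLK2+, against 13.3% ± 6.86 and 45.1% ± 13.6 of the other cells, and their median depth was 13376.5 against 9708 UMIs. In cells without *GJA1*, *DLK2* and *GSTA1*, an alternative chosen after the data were seen, the log2 fold change of *SULT1C4* was 0.59 (adjusted p 0.49), that of *SULT1A1* 0.30 (adjusted p 0.075) and that of *TST* 0.11 (adjusted p 0.36), so these calls were not made there. In DLK2+ cells alone, *SULT1A1* was called higher by 0.80 and *TST* by 0.34. *UGT2B10* did not pass the filter in either of these splits and *SULT1C4* did not in DLK2+ cells alone, so they were not tested there. In cells without *GJA1* and *DLK2*, also chosen after the data were seen, *SULT1C4* was called at 0.84 (adjusted p 0.031), *UGT2B10* at 1.01 (0.022) and *SULT1A1* at 0.36 (0.022), and *TST* was at 0.08 (0.36), by edgeR. Without the cow as a block, none of the 8 was called.

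**Figure D5:**
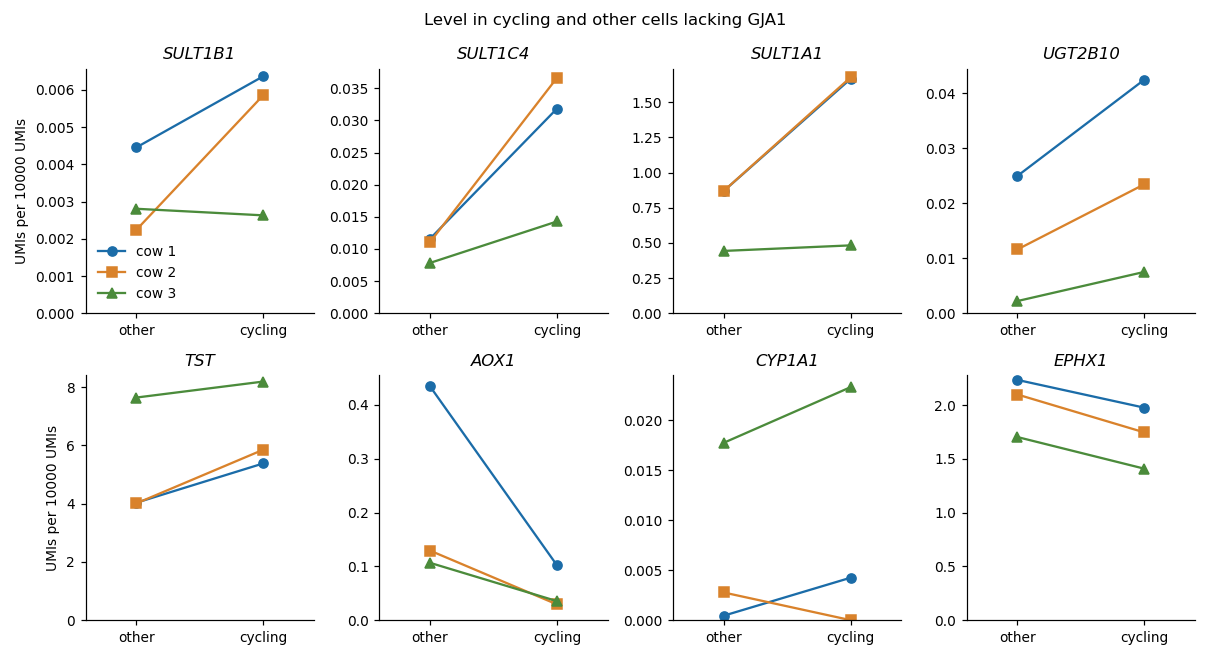
Level of each enzyme (y axis, UMIs per 10000 UMIs) in cycling and other cells lacking GJA1, with a line joining the values of each cow. AOX1 and EPHX1 are lower in the cycling cells of all 3 cows, and SULT1C4, SULT1A1, UGT2B10 and TST are higher.

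Of the other list genes, 9 of 80 were called higher in cycling cells and 21 lower, with a median log2 fold change of -0.10, against -0.02 over all genes. *CYB5B*, an electron donor of the outer mitochondrial membrane, was higher by 0.94 ± 0.09 (SE, adjusted p 5.1e-07), *PAPSS2* by 0.76, *SLC35D1* by 0.53, *BPNT1* by 0.52 and *CES2*, a carboxylesterase, by 0.46. *NR1I3* was lower by -1.58 ± 0.21 (SE, adjusted p 3.9e-05), the histamine methyltransferase *HNMT* by -1.42, *CYP3A4* by -0.86, *PON3* by -0.82 and *NQO2* by -0.74. Of these, *SLC35D1* lost its call without cow 1 (adjusted p 0.14) or cow 2 (0.088), *CES2* without cow 2 (0.072), *CYP3A4* without cow 2 (0.13) or cow 3 (0.078) and *HNMT* without cow 3 (0.16), by edgeR. *PAPSS2* lost its call with gates of 2 UMIs (0.46, adjusted p 0.086) and in thinned cells (0.49, adjusted p 0.29).

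The genes most like each enzyme over the 21 sums of 7 states and 3 cows, after removal of the cow means, were found among genes with a mean CPM of at least 5. The sums of a cow share a library, so the correlations (Pearson's r) describe the profile and carry no test. *TST* was most like *MAOA* (0.994), *ACADS* (0.994) and ENSBTAG00000036116 (0.993), and *SULT1A1* was most like *SCGB1C1* (0.984), *AHCYL2* (0.981) and *FAM162A* (0.980). *SULT1C4* was closest to *CRYAB* (0.963), *PET100* (0.957) and *GLRX5* (0.956), and *SULT1B1* to *BAK1* (0.955), *GLRX5* (0.949) and *TEX261* (0.949).

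*UGT2B10* came nearest to *CTSD* (0.956), ENSBTAG00000050611 (0.945) and *MDM2* (0.919), and *AOX1* to *HOXC6* (0.974), *FOXA1* (0.967) and *ANGPTL4* (0.960). *EPHX1* (*MAP4* 0.899, *DCTD* 0.853, *ACOT9* 0.850) and *CYP1A1* (*LGALS1* 0.802, *CCDC80* 0.774, *ABHD1* 0.769) had the lowest values, and *CYP1A1* rests on 301 UMIs over these sums. The profile of *SULT1B1* rests on fewer still, 186 UMIs.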

How the data were processed

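Rumen tissue of 3 cows was broken up with enzymes, and its single cells were sequenced with the Chromium 3' v3 chemistry. The authors picked the epithelial cells afterwards from the sequenced cells. They chose clusters by *KRT14*, *KRT5* and *KRT19* and removed the other cell types. The submitters' processing notes name Cell Ranger 3.1.0. The authors deposited 1 matrix of raw UMI counts. They also deposited a scaled natural log version of it, which served only for gene names and a check of the counts. Reads were aligned by the authors to a cattle genome of another build than the gene table at hand, so no coordinates are given. The number that ends each cell barcode was taken as the number in the cow's sample title. The authors excluded cells on UMIs and mitochondrial share and identified doublets with DoubletFinder, so no doublet caller was run here.

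Counts were summed per cow and state and tested with edgeR 4.0.16 in R 4.3.3 (TMM, filterByExpr, cow as a block), with Benjamini-Hochberg adjustment over all genes. DESeq2 1.42.0, no filter, no block, a left-out cow, gates of 2 UMIs, thinned cells (5000 UMIs), cells over 1% mitochondrial UMIs and cells without both *GJA1* and *DLK2* were the alternatives. With gates of 2 UMIs, *GJA1*, *DLK2*, *GSTA1*, *IGFBP5* and the sum of *MKI67* and *TOP2A* counted as present from 2 UMIs. GJA1+ cells were still split by which of *IGFBP5* and *GSTA1* was higher, with no minimum. Cells with 1 *GJA1* UMI then counted as lacking *GJA1*. For the tests and ratios in thinned cells, the states were set again from the thinned counts, so the cells in each state changed. The shares of cells with a UMI after thinning kept the states of the full counts. The 3 further splits of the cycling comparison (cells lacking *DLK2*, cells lacking *DLK2* and *GSTA1*, DLK2+ cells) were chosen after seeing the data. The scripts were tested on simulated data. The 8 enzymes, the gene lists and the gates were chosen with earlier results of these data known. Pathway genes were named by rule: per comparison and direction, the 5 called genes with the largest change that went the same way in all cows. Other pathway genes in the text were chosen after their values were seen. Each cow gave every state, and same-cow sums deviated together (mean correlation of deviations 0.580 within and -0.319 between cows). The mean over cows was taken off in each state, which by itself pulls the value between cows below 0.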

Additional observations from a re-analysis of the deposited data

How the results depend on the processing

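Of the 56 alternative log2 ratios of the 8 enzymes between GJA1+ and DLK2+ cells, none changed sign and 48 moved by less than the SD between cows. Between GSTA1-higher and IGFBP5-higher cells, 6 of 56 changed sign: with gates of 2 UMIs *SULT1C4* was at -0.20 and *SULT1A1* at -0.078, in thinned cells *UGT2B10* was at 0.13 and *CYP1A1* at 1.03, and with a cow left out *UGT2B10* ran from -0.18 to 0.00060 and *CYP1A1* from -3.26 to 0.47. Without the replicate block, which drops the pairing by cow, the calls over all genes were 1095 in place of 4113 (GJA1+ against DLK2+), 39 in place of 826 (GSTA1-higher against IGFBP5-higher) and 266 in place of 3417 (cycling), and those among the list genes 20 in place of 50, 1 in place of 13 and 0 in place of 30. In the GSTA1-higher comparison, gates of 2 UMIs gave 326 calls (4 list genes), thinned cells 159 (3 list genes), no cells with both *GJA1* and *DLK2* 7 list genes, and a cow left out 316 to 448 calls (6 to 7 list genes). In the cycling comparison, thinned cells gave 2233 calls, and DLK2+ cells alone, added after seeing the data, 1645 (17 list genes). Signs of named genes turned for *CBS* (0.023, gates of 2 UMIs) and *CYP20A1* (0.39, thinned cells) between GJA1+ cells, and for *CYP1A1* (-0.13, gates of 2 UMIs) in cycling cells. With a cow left out, *SULT1B1* in cycling cells was at -0.0073 without cow 2 and 0.30 without cow 1 (without cow 3 it did not pass the filter), and *CYP2C87* in GJA1+ against DLK2+ cells ran from -0.058 to 1.66. The *CYP2C87* call there was also lost in thinned cells (adjusted p 0.051) and without low-mitochondrial cells (0.056). Calls of named genes lost beyond those in the report, the fit without the block aside, were, in GJA1+ against DLK2+ cells, *PAPSS1* in thinned cells, *MOCS2* with no filter, and *AHR* with gates of 2 UMIs, in thinned cells and without cells with both *GJA1* and *DLK2*; between GJA1+ cells, *UGT2A1* with DESeq2, no filter, without low-mitochondrial cells and without cells with both *GJA1* and *DLK2*; *TSTD3* and *CBS* with no filter; *CBS*, *CYP20A1* and *ALDH2* without cells with both genes; and *TSTD3*, *CBS* and *ALDH2* in thinned cells. In cycling cells they were *SLC35D1*, *CYP3A4* and *HNMT* with DESeq2, *SLC35D1* and *CYP3A4* in thinned cells and in cells lacking *DLK2* and *GSTA1* too, and these 3 and *CES2* in DLK2+ cells alone. Named genes that did not pass the filter, and so were not tested, were, beside those in the report, *UGT2A1* between GJA1+ cells without cow 1 and in thinned cells, and in cycling cells *HNMT* and *SULT1B1* in thinned cells, *SULT1B1* without low-mitochondrial cells, *CYP1A1* without cow 3, and *SULT1B1* and *CYP1A1* in the 3 added splits. The cause of these changes was not tested. Depth limits *SULT1B1*, *CYP1A1* and *UGT2A1*, with 186, 301 and 75 UMIs in all.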
